A study of Mus musculus with 37 samples.

Results

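The 10 genes described here encode synthetases that make phosphoribosyl pyrophosphate (PRPP) and enzymes of de novo purine synthesis and purine salvage. They were chosen by name and not by a measured value, although earlier results of these data were known. They are 10 of 30892 genes in the mouse cardiac fibroblast table, 10 of 20158 in the rat myocyte table and 10 of 31053 in the single-cell tables. In these experiments ENPP1, an ectonucleotidase of the fibroblast surface that cleaves extracellular ATP to AMP, was studied through its effect on neighbouring myocytes. Neonatal rat ventricular myocytes (NRVM), isolated from Sprague-Dawley hearts, received vehicle, ENPP1, ATP, ENPP1+ATP or AMP for 24 h and were sequenced (3 libraries per treatment, 15 in all). Their conditioned medium (MCndM) was placed for 24 h or 48 h on serum-starved cardiac fibroblasts (CFs), a C57BL/6 mouse line immortalized with SV40 (2 libraries per medium and time, 20 in all). Nonmyocytes of injured hearts were taken 7 days after permanent coronary ligation for single-cell sequencing, as 1 library labelled wild type (the control) and 1 library of ENPP1CKO animals, in which tamoxifen-induced Col1a2-CreERT removes a floxed Enpp1 from collagen-expressing cells from before the injury until harvest. All CF groups therefore shared the same immortalized line and a myocyte medium, and no sequenced CF group received the additives without myocyte medium.

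PRPP is the activated ribose on which purines are built. PRPP synthetase makes it from ribose 5-phosphate, a product of the pentose phosphate pathway, and purine nucleotides inhibit the enzyme. In de novo synthesis PPAT commits PRPP to the pathway, GART, PFAS, PAICS and ADSL assemble the ring, and ATIC closes it to give IMP, the parent of AMP and GMP. In salvage APRT joins PRPP to adenine and HPRT joins it to hypoxanthine or guanine, so that bases released from broken-down nucleotides are used again with the cost of PRPP but without the de novo steps.

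In the mouse (GRCm38.p6, RefSeq) the genes of both synthetases and of HPRT lie on the X chromosome. Prps1 spans chrX:140456603-140476140 (plus strand), Prps2 spans chrX:167346320-167382872 (minus strand) and Hprt spans chrX:52988078-53021660 (plus strand). Aprt is a short gene at chr8:122574637-122576907 (minus strand). Of the de novo genes, Gart lies at chr16:91621395-91646972 (minus strand), Pfas at chr11:68985701-69008460 (minus strand), Adsl at chr15:80948490-80970947 (plus strand) and Atic at chr1:71557156-71579403 (plus strand). Ppat (chr5:76913249-76951578, minus strand) and Paics (chr5:76951302-76967509, plus strand) are arranged head to head, and their gene bodies share 277 bases. The sources used here do not say whether counting used strand, so reads in the shared bases may belong to either gene.

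Promoter windows from 250 bases before to 50 bases after the RefSeq start were found for 9 of the 10 genes in the GRCm38.p6 table, all but Pfas. The E-box CACGTG, which reads the same on both strands and is bound by the transcription factors MYC and MAX, was searched in them. It was present once in the windows of Paics and Atic, at -200 and -4 from the start, and its letters were not in the other 7 windows. Of 32851 mouse promoter windows of the same length, 7.15% hold it. The 3 windows below are shown 5′ to 3′ on the gene's own strand. Atic and Paics hold the motif and were among the de novo genes with lower counts in treated CFs. Ppat is shown because it overlaps Paics head to head, and the Paics window lies within the Ppat gene body. Adsl, whose window lacks the motif, was lower at 24 h as well, and binding was not tested. The capitals mark the E-box.
Atic, chr1:71556906-71557205, plus strand: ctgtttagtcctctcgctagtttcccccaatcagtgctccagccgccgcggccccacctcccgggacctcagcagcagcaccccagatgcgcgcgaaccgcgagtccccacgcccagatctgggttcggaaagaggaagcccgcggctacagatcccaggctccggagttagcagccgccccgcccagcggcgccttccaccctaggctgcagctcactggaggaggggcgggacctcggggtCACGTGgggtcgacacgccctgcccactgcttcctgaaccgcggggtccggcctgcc
Paics, chr5:76951052-76951351, plus strand: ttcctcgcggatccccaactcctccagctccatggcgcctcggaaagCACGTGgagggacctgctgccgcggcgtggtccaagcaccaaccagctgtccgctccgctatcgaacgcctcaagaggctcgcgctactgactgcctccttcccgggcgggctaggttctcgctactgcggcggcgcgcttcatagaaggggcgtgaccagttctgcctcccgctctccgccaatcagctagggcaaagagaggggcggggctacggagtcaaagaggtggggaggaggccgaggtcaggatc
Ppat, chr5:76951529-76951828, minus strand: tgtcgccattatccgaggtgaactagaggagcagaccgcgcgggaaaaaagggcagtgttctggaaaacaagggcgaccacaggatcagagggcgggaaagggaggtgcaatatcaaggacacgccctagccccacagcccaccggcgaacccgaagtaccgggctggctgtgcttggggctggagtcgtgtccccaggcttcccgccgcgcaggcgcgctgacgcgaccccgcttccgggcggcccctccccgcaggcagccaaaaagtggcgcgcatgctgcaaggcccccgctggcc

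The CF libraries held 32184799 to 115824659 reads counted to genes and the NRVM libraries 13481389 to 16977980. Nothing in the labels says that libraries of a group came from separate cultures, so the p-values measure the spread between these libraries, which may be technical. Of 10 fibroblast markers, 9 had a median above 1 CPM (counts scaled to a common library total) in CFs, and none of the lists of other cell types was at 0 throughout. The summed fibroblast markers were at 7128 to 7625 CPM in vehicle medium and lower with ENPP1+ATP or AMP, at 2831 to 3707 CPM at 24 h and 3880 to 4362 CPM at 48 h. The summed macrophage markers went from 15.8 to 18.3 CPM with vehicle to 34.5 to 88.5 CPM with ENPP1+ATP or AMP, and the smooth muscle or pericyte markers at 48 h from 131 to 135 CPM to 360 to 432 CPM. Of 10 macrophage markers, only 4 (Cd68, Csf1r, Lyz2 and Cd14) had a median above 1 CPM in CFs. Of 10 smooth muscle or pericyte markers, 3 did (Notch3, Mustn1 and Des). In NRVM the summed fibroblast markers, Col1a1 and Dcn among them, were at 24942 to 26324 CPM with vehicle and at 8451 to 12525 CPM with ATP, ENPP1+ATP or AMP, and the cardiomyocyte markers were at 29175 to 30227 CPM with vehicle and 17620 to 18806 CPM with ATP. The part of these markers in the results that follow was not tested, and in bulk RNA fewer cells of a type and less RNA per cell cannot be told apart.

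All 10 genes passed the filter on low counts in CFs. Levels of different genes were compared as normalised CPM per kilobase of merged exons (GENCODE M21), averaged over the 2 libraries with vehicle at 24 h. Paics was highest at 65.1 and Pfas lowest at 7.33. Hprt at 43.8 and Aprt at 43.6 came next, and their libraries overlapped. Prps2 at 20.4 and Gart at 19.9 overlapped as well, above Prps1 at 16.2. Atic at 12.5, Ppat at 11.1 and Adsl at 9.99 followed in that order, without overlap between neighbours. By this measure the salvage genes stood above the gene of the committed de novo step in vehicle medium. Merged exons join those of all annotated transcripts, with 7985 bases for Atic and 1289 for Hprt. A gene whose reads come from a shorter transcript is therefore set too low. The order between genes depends on these lengths, and the absence of overlap covers only the spread between libraries.

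Prps1 and Prps2, the genes of the ubiquitously expressed PRPP synthetases, both rose in CFs given ENPP1+ATP or AMP MCndM, Prps1 more at 24 h and Prps2 more at 48 h. At 24 h Prps1 was at 31.2 and 33.4 normalised CPM with vehicle, 51.1 and 49.1 with ENPP1+ATP, and 51.9 and 50.5 with AMP. The treated libraries lay above both vehicle libraries, and the log2 fold changes were 0.64 ± 0.066 (SE, adjusted p = 1.42e-08) and 0.67 ± 0.065 (adjusted p = 4.22e-09). At 48 h Prps1 was at 33.2 and 32.7 CPM with vehicle, 42.1 and 36.8 with ENPP1+ATP, and 40.2 and 37.7 with AMP. The differences were smaller, with log2 fold changes of 0.26 ± 0.067 (adjusted p = 0.00233) and 0.24 ± 0.067 (adjusted p = 0.00462), and the first was not called without 48 h ENPP1+ATP replicate 1 (0.16). Prps1l3, a related mouse gene, had 22.8 to 31.9 CPM in these libraries, and 11.5% of the 50-base words of its transcript also occur in Prps1 transcripts, so some reads may be split between them. With the counts of both added, an alternative chosen after the data were seen, the log2 fold changes were 0.30 at 24 h with either additive, and 0.19 and 0.20 at 48 h, still past the threshold. Prps1l3 alone was at -0.19 with ENPP1+ATP (adjusted p = 0.0835) and fell with AMP (-0.23, adjusted p = 0.0280) at 24 h.

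Prps2 was at 75.9 and 82.2 CPM with vehicle at 24 h, 106 and 115 with ENPP1+ATP, and 119 and 113 with AMP. Its log2 fold changes were 0.49 ± 0.056 (adjusted p = 8.05e-08) and 0.56 ± 0.056 (adjusted p = 6.41e-09). At 48 h it was at 80.3 and 82.4 CPM with vehicle, 154 and 146 with ENPP1+ATP, and 158 and 164 with AMP. These libraries did not overlap with vehicle, and the log2 fold changes reached 0.88 ± 0.056 (adjusted p = 2.79e-12) and 0.98 ± 0.056 (adjusted p = 3.18e-13). No 50-base word of Prps2 transcripts occurs in Prps1 transcripts (0 of 3824).

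**Figure D1:**
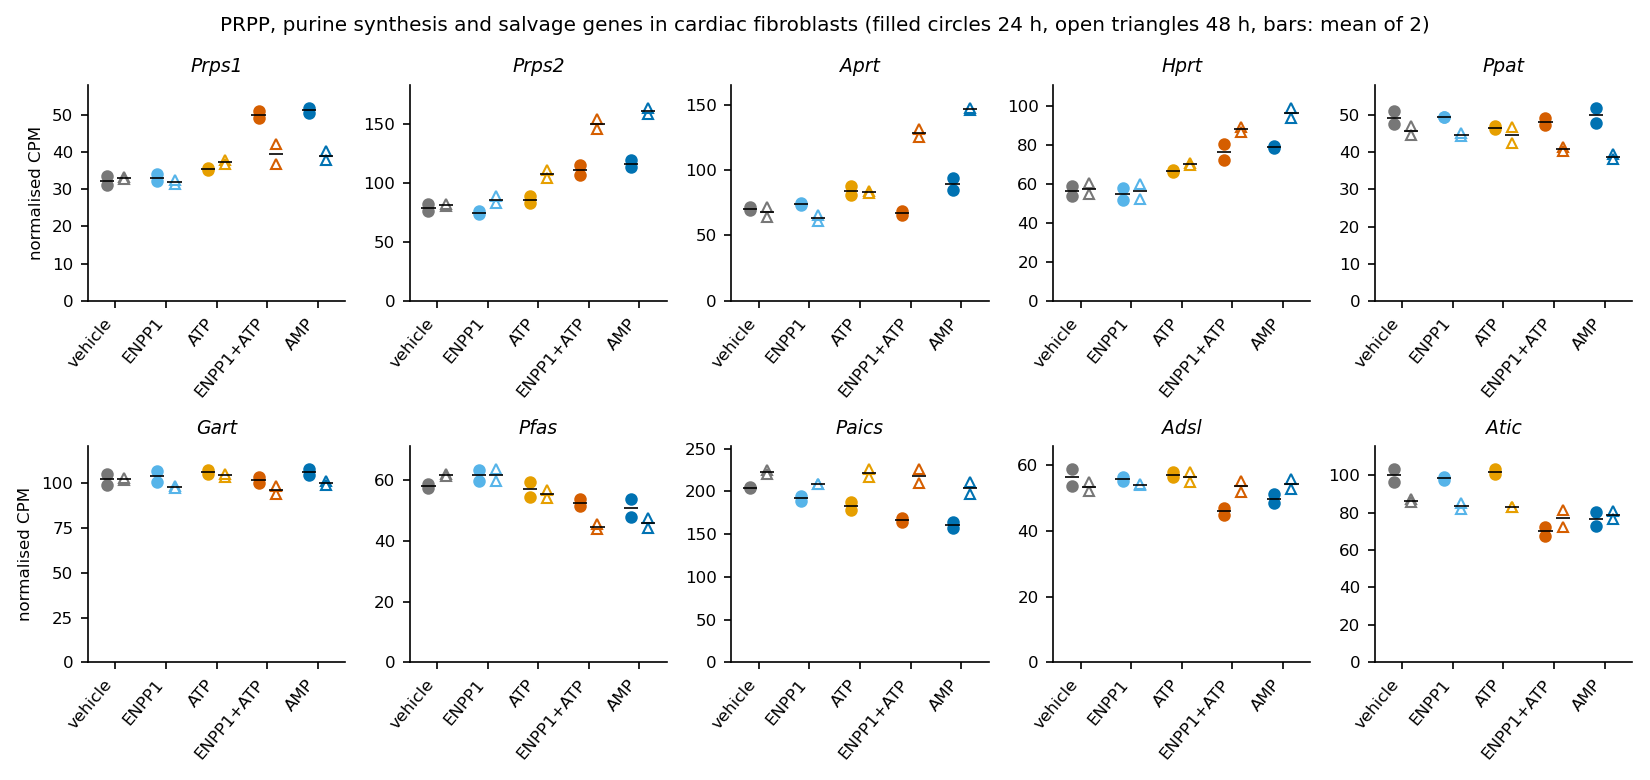
Normalised CPM (vertical axis, from 0) of the 10 genes in each CF library, by MCndM on the horizontal axis, with filled circles for 24 h, open triangles for 48 h and a bar at the mean of 2 libraries. Prps2, Aprt and Hprt stand highest with ENPP1+ATP and AMP at 48 h (Aprt at 126 to 148 CPM against 64.0 and 71.7 with vehicle), Prps1 stands highest with the same media at 24 h, and the 6 de novo genes stay near or below their vehicle level.

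Of the salvage genes, Hprt rose with ENPP1+ATP and AMP at both times, whereas Aprt rose with AMP at 24 h and with both media at 48 h. Aprt was at 69.5 and 71.5 CPM with vehicle at 24 h, 65.4 and 68.9 with ENPP1+ATP, and 85.1 and 93.8 with AMP. Only the AMP medium gave a call at this time among these 2, with a log2 fold change of 0.35 ± 0.060 (adjusted p = 2.37e-05) against -0.07 ± 0.061 (adjusted p = 0.382) for ENPP1+ATP, a contrast between 2 media whose difference was not itself tested. At 48 h Aprt was at 64.0 and 71.7 CPM with vehicle, 126 and 132 with ENPP1+ATP, and 146 and 148 with AMP. These were the largest changes of the 10 genes, with log2 fold changes of 0.92 ± 0.060 (adjusted p = 4.15e-12) and 1.11 ± 0.060 (adjusted p = 1.14e-13).

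Hprt was at 54.0 and 58.8 CPM with vehicle at 24 h, 72.2 and 80.7 with ENPP1+ATP, and 78.2 and 79.3 with AMP. Treated and vehicle libraries did not overlap, and the log2 fold changes were 0.44 ± 0.069 (adjusted p = 7.24e-06) and 0.48 ± 0.068 (adjusted p = 1.53e-06). At 48 h Hprt was at 54.9 and 60.2 CPM with vehicle, 89.4 and 86.6 with ENPP1+ATP, and 99.0 and 93.5 with AMP, for log2 fold changes of 0.61 ± 0.069 (adjusted p = 6.67e-08) and 0.74 ± 0.069 (adjusted p = 2.40e-09).

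None of the 6 de novo genes rose in CFs in any of the 8 comparisons with vehicle. With ENPP1+ATP or AMP, those that fell did so by less than Aprt and Hprt rose with these media at 48 h. At 24 h with ENPP1+ATP, the fall of Atic was larger than the rise of Hprt. Atic, the gene of the enzyme of the last 2 steps to IMP, fell most at 24 h. It was at 96.5 and 103 CPM with vehicle, 67.6 and 72.5 with ENPP1+ATP (log2 fold change -0.51 ± 0.060, adjusted p = 1.06e-07), and 72.6 and 80.5 with AMP (-0.38 ± 0.059, adjusted p = 6.57e-06). At 48 h, when Atic with vehicle was at 87.1 and 85.6 CPM, the ENPP1+ATP libraries were at 72.1 and 81.6 (-0.17 ± 0.060, adjusted p = 0.0229). That smaller call was lost without 48 h ENPP1+ATP replicate 1 or without either vehicle library (-0.26 to -0.08 over the 4 libraries left out in turn), and with DESeq2, relative log expression factors or only the libraries compared. The AMP difference of -0.13 (adjusted p = 0.0788) did not pass.

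Paics, whose product carries out a pair of the middle steps, was at 205 and 203 CPM with vehicle at 24 h, 169 and 164 with ENPP1+ATP, and 164 and 157 with AMP. It fell by 0.30 ± 0.048 (adjusted p = 1.43e-05) and by 0.35 ± 0.048 (adjusted p = 1.09e-06) on the log2 scale. At 48 h its ENPP1+ATP libraries (226 and 210 CPM) overlapped the vehicle libraries (225 and 220 CPM), with a log2 fold change of -0.03 ± 0.048, and the AMP libraries were at 211 and 197 CPM (-0.12 ± 0.048, adjusted p = 0.0392). The latter call was lost without 48 h AMP replicate 2 or either vehicle library (-0.17 to -0.07), with DESeq2, with factors from relative log expression and with only the libraries compared.

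Adsl, whose product acts in de novo synthesis and again on the branch to AMP, was at 53.8 and 58.8 CPM with vehicle at 24 h, 47.1 and 44.9 with ENPP1+ATP (-0.29 ± 0.059, adjusted p = 0.000238), and 48.5 and 51.1 with AMP (-0.17 ± 0.059, adjusted p = 0.0164). The second call was lost without 24 h AMP replicate 1 or 24 h vehicle replicate 2 (-0.25 to -0.12), with library totals as the only scaling and with only the libraries compared. At 48 h its log2 fold changes were 0.01 and 0.02.

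Pfas, the gene of a glutamine-using enzyme of the pathway, showed the opposite order of times. At 24 h it was at 57.6 and 58.7 CPM with vehicle, 53.8 and 51.6 with ENPP1+ATP (-0.14 ± 0.063, adjusted p = 0.0682), and 48.0 and 54.0 with AMP (-0.19 ± 0.063, adjusted p = 0.0154, not called without 24 h AMP replicate 1 or 24 h vehicle replicate 2, range -0.28 to -0.10, or with library totals as the only scaling). At 48 h it was at 62.0 and 61.5 CPM with vehicle, 44.0 and 45.5 with ENPP1+ATP, and 44.3 and 47.6 with AMP. It fell with both, by 0.47 ± 0.064 (adjusted p = 1.58e-06) and 0.43 ± 0.064 (adjusted p = 5.27e-06) on the log2 scale.

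Ppat, the gene of the committed step, did not differ detectably at 24 h (-0.03 ± 0.061 and 0.02 ± 0.061). At 48 h it was at 47.0 and 44.6 CPM with vehicle, 41.5 and 40.4 with ENPP1+ATP (-0.16 ± 0.063, adjusted p = 0.0370), and 39.5 and 38.2 with AMP (-0.24 ± 0.063, adjusted p = 0.00295). The ENPP1+ATP call was lost without either ENPP1+ATP library or vehicle replicate 1 (-0.21 to -0.12), and in 4 of 6 alternative fits, which were DESeq2, relative log expression factors, no filter and only the libraries compared. The AMP call was lost without 48 h vehicle replicate 1 (-0.28 to -0.19). Gart, whose product catalyses 3 steps, was the steadiest, with 94.3 to 108 CPM over all 20 libraries and log2 fold changes of -0.09 to 0.06 against vehicle, none past the threshold.

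Counted together, 3 genes rose and 3 fell with ENPP1+ATP at 24 h (23.9% of all 17879 genes tested rose and 25.3% fell), and 4 rose and 4 fell with AMP (25.3% and 27.5% of all genes). At 48 h 4 rose and 3 fell with ENPP1+ATP (20.8% and 24.4% of all genes), and 4 rose and 3 fell with AMP (21.1% and 22.9% of all genes). With so many genes called in these media, the number of the 10 that changed was near or somewhat above the share over all genes, and the split by role is given as a description. For the 4 synthetase and salvage genes the median log2 fold change was 0.47 and 0.52 at 24 h and 0.75 and 0.86 at 48 h (ENPP1+ATP and AMP in each case), and for the 6 de novo genes -0.21 and -0.18 at 24 h and -0.13 and -0.13 at 48 h. The median over all genes was between -0.03 and 0.00 in the same comparisons, which share their vehicle libraries.

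**Figure D2:**
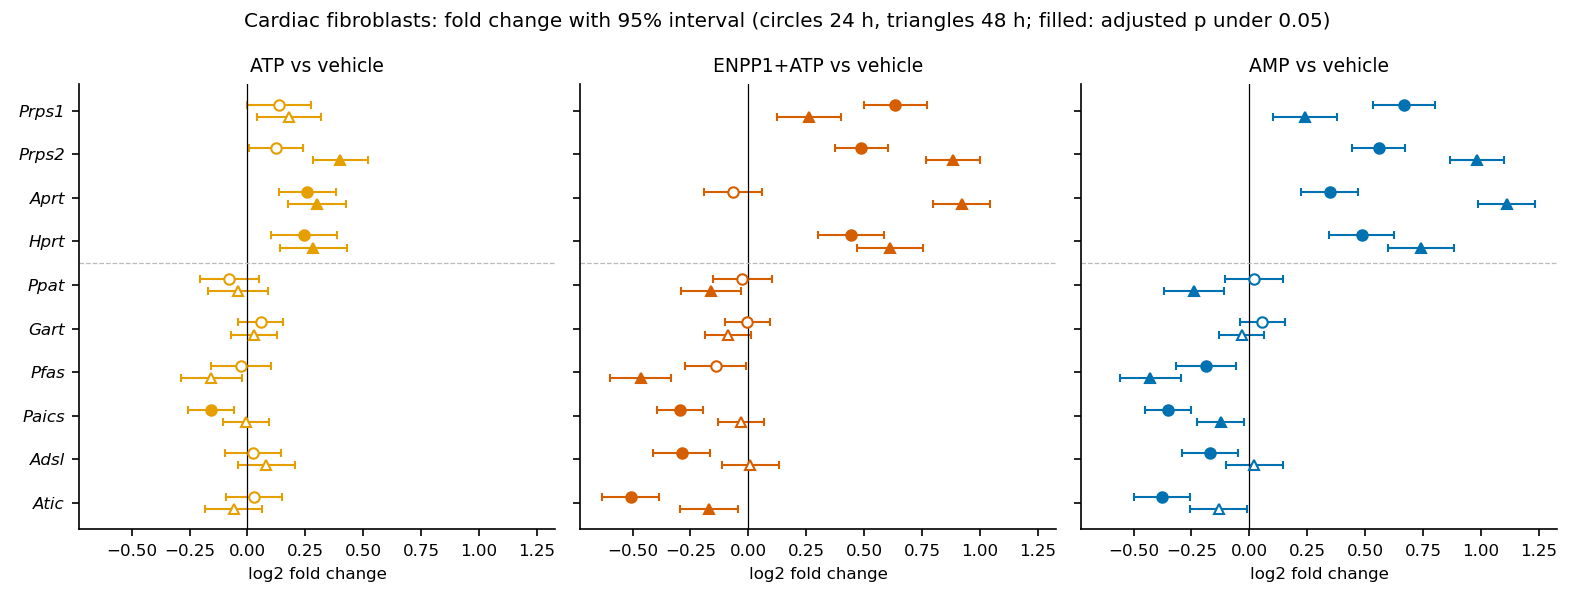
Log2 fold change against vehicle (horizontal axis) with its 95% interval for the 10 genes in CFs, in 1 panel per MCndM, with circles for 24 h, triangles for 48 h and filled symbols for adjusted p under 0.05. Above the dashed line, the synthetase and salvage genes lie to the right of 0 in the ENPP1+ATP and AMP panels except Aprt with ENPP1+ATP at 24 h (-0.07), and below it the de novo genes in these panels lie between -0.51 (Atic) and 0.06 (Gart), with none called to the right of 0.

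ATP MCndM, which differs from the ENPP1+ATP medium by the lack of added ENPP1, gave 3 calls at each time, and at 24 h its Aprt value lay above that with ENPP1+ATP. At 24 h Aprt rose to 87.8 and 80.7 CPM (0.26 ± 0.060, adjusted p = 0.00480), Hprt rose to 66.1 and 67.1 CPM (0.24 ± 0.069, adjusted p = 0.0217) and Paics fell to 188 and 178 CPM (-0.16 ± 0.048, adjusted p = 0.0340). These were 2 rises (4.77% of all genes) and 1 fall (6.32% of all genes). All 3 calls depended on single libraries. Aprt lost its call without ATP replicate 1 or vehicle replicate 1 (0.20 to 0.33), Hprt without either ATP library or vehicle replicate 1 (0.18 to 0.30) and Paics without any of the 4 libraries (-0.20 to -0.11) and with either other scaling. At 48 h 3 genes rose (5.35% of all genes) and none fell (2.48% of all genes). Prps2 rose to 111 and 104 CPM (0.40 ± 0.057, adjusted p = 2.53e-05), Aprt to 84.3 and 82.6 CPM (0.30 ± 0.060, adjusted p = 0.00171, not called without 48 h vehicle replicate 1, range 0.23 to 0.38) and Hprt to 70.7 and 69.5 CPM (0.28 ± 0.069, adjusted p = 0.00886, not called without ATP replicate 1 or vehicle replicate 1, range 0.23 to 0.35).

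ENPP1 MCndM without ATP gave no call for the 10 genes at either time. No gene in the table passed the threshold there (0% rose and 0% fell at 24 h and at 48 h) by edgeR or by DESeq2 (0 and 0 genes), while 249 genes at 24 h and 743 at 48 h had an unadjusted p under 0.05, none of them among the 10. The 10 log2 fold changes lay between -0.09 and 0.09 at 24 h and between -0.10 and 0.08 at 48 h, and their 95% intervals reached from -0.22 to 0.22 at most.

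Set directly against ATP medium, ENPP1+ATP medium raised 3 of the genes (21.8% of all genes) and lowered 4 (22.1% of all genes) at 24 h. Prps1 (0.50 ± 0.067, adjusted p = 1.12e-06), Prps2 (0.37 ± 0.057, adjusted p = 8.55e-06) and Hprt (0.20 ± 0.069, adjusted p = 0.0219) were higher. Atic (-0.54 ± 0.060, adjusted p = 7.53e-08), Aprt (-0.33 ± 0.061, adjusted p = 9.21e-05), Adsl (-0.31 ± 0.060, adjusted p = 0.000135) and Paics (-0.14 ± 0.049, adjusted p = 0.0239) were lower. The calls of Hprt (0.12 to 0.27, lost without either ATP library or ENPP1+ATP replicate 2) and Paics (-0.18 to -0.10, lost without ATP replicate 1 or ENPP1+ATP replicate 2, and with library totals alone) depended on single libraries. At 48 h Aprt (0.62 ± 0.060, adjusted p = 7.74e-09), Prps2 (0.48 ± 0.056, adjusted p = 1.69e-07) and Hprt (0.33 ± 0.069, adjusted p = 0.000413) were higher, 3 genes against 18.2% of all genes, and Pfas (-0.31 ± 0.065, adjusted p = 0.000398) was lower, 1 gene against 21.3% of all genes. Aprt thus differed in opposite directions at the 2 times. It stood below the ATP libraries at 24 h and above them at 48 h.

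With vehicle medium the genes changed little between the times. Of the 10, none rose (1.68% of all genes) and Atic alone fell (3.2% of all genes), by 0.21 ± 0.059 on the log2 scale (adjusted p = 0.0408), a call lost without any of the 4 libraries (-0.25 to -0.16) and with library totals alone. The time courses with treatment were compared by the interaction, which is the log2 fold change at 48 h minus that at 24 h. For ENPP1+ATP 5 genes had a higher change at 48 h (15.1% of all genes) and 2 a lower one (14.9% of all genes). Aprt had the largest, 0.99 ± 0.085 (adjusted p = 3.92e-09), followed by Prps2 at 0.39 ± 0.080 (adjusted p = 0.000440), Atic at 0.34, Adsl at 0.30 and Paics at 0.26, the last 3 from changes below 0 at 24 h. Prps1 (-0.37 ± 0.094, adjusted p = 0.00353) and Pfas (-0.32 ± 0.090, adjusted p = 0.00771) had the lower ones. With Prps1l3 counts added, the Prps1 interaction was -0.10 and no longer passed (adjusted p = 0.406). For AMP 5 genes had a higher change at 48 h (17.3% of all genes) and 3 a lower one (14.4% of all genes), with Aprt again first (0.76 ± 0.084, adjusted p = 1.38e-07).

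The genes whose CF pattern was closest to the median of the 6 de novo genes were found by distance. Over the 8 comparisons with vehicle, the root mean square difference in log2 fold change from the median of the 6 de novo genes was smallest, among 17879 genes, for Trim28 (0.0204), Plaa (0.0245), Cab39 (0.0297), Lims1 (0.0304) and Vdac2 (0.0313). The de novo genes themselves lay at 0.0875 for Adsl, 0.100 for Paics, 0.109 for Ppat, 0.121 for Gart, 0.128 for Atic and 0.173 for Pfas. Their ranks were 617 (Adsl) to 3226 (Pfas), so many other genes lay closer to the median than any of the 6. The 5 genes were picked for closeness, so their smaller distances follow from the choice. The synthetase and salvage genes were at 0.473 to 0.662.

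Genes that feed or follow the pathway were counted in the same comparison, ENPP1+ATP against vehicle in CFs at 24 h. Over all genes tested there, 23.9% rose and 25.3% fell, and the lists were not tested as sets. They were chosen with earlier results of these data known. Of 9 genes of the pentose phosphate pathway and its PRPP synthetase-associated proteins, none rose and 6 fell, among them Pgls (-0.84 ± 0.074), Rpia (-0.75 ± 0.083), whose product makes ribose 5-phosphate, and Pgd (-0.47 ± 0.057). Of 9 genes of the folate cycle, which supplies formyl groups for the purine ring, 3 rose and 6 fell. Mitochondrial Aldh1l2 (-1.82 ± 0.11) and Mthfd1l (-1.31 ± 0.062) fell, and Aldh1l1, a cytosolic formyltetrahydrofolate dehydrogenase, rose (2.17 ± 0.24). Of 11 genes between IMP and AMP or GMP, 3 rose and 2 fell. Ampd1, an AMP deaminase with few reads (2.20 ± 0.82), and Impdh2, the enzyme of the step from IMP towards GMP (0.23 ± 0.049), rose, and Guk1 fell (-0.32 ± 0.11). Of 8 tested genes of other PRPP users and salvage, 1 rose and 6 fell, led by Pnp (-1.01 ± 0.073), which releases the bases that HPRT uses, Mtap (-0.90 ± 0.056), which releases the adenine that APRT uses, and Naprt (-0.71 ± 0.16).

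**Figure D3:**
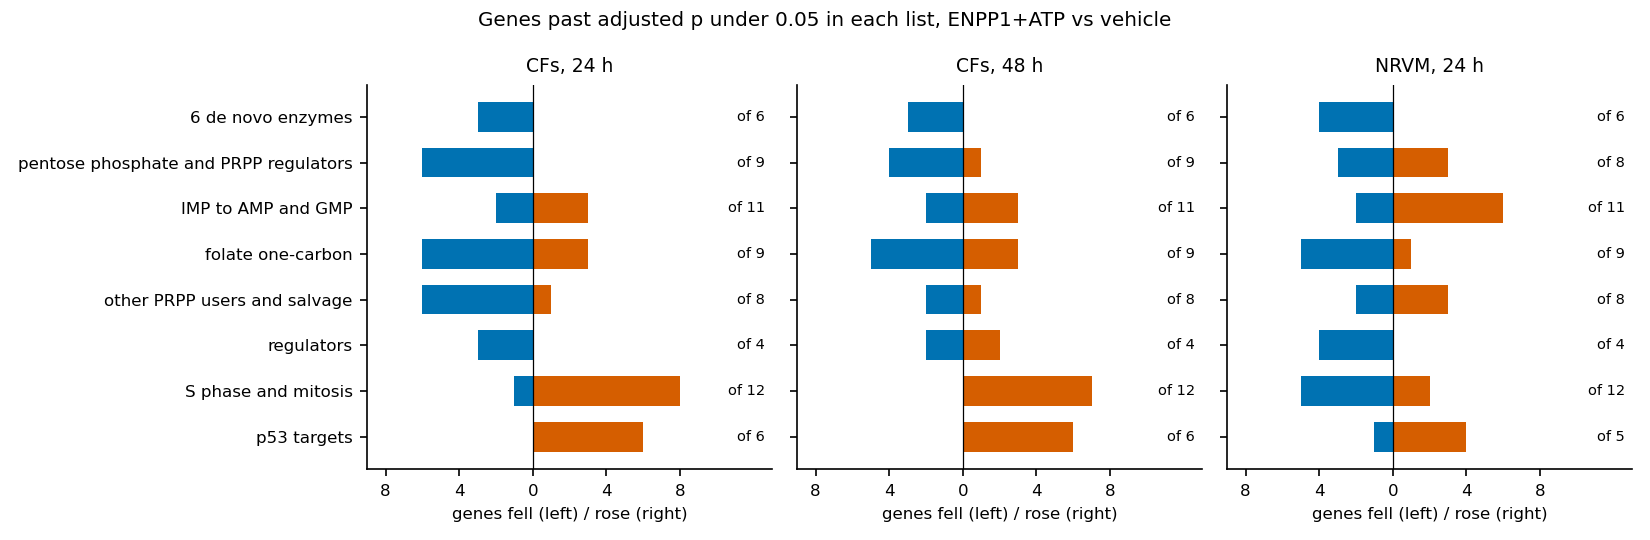
Number of genes that rose (right, orange) or fell (left, blue) past adjusted p under 0.05 with ENPP1+ATP against vehicle, per gene list, with the number tested at the right of each row, for CFs at 24 h and 48 h and for NRVM. The pentose phosphate list shows 0 rises and 6 falls in CFs at 24 h, and the p53 target list only rises in CFs, with 6 of 6 at both times. Over all genes, 23.9% rose and 25.3% fell in CFs at 24 h, 20.8% and 24.4% at 48 h, and 28.6% and 27.4% in NRVM. The lists were chosen with earlier results of these data known, and the paper reports p53 pathway upregulation in these CFs.

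Of 4 transcription factors that act on purine or amino acid synthesis genes, 3 fell at 24 h. Myc fell by 0.85 ± 0.068, Mycn by 1.20 ± 0.23 and Atf4 by 0.50 ± 0.065 on the log2 scale. At 48 h Myc (-0.53 ± 0.069) and Atf4 (-1.21 ± 0.066) were again lower, and Mycn was higher (0.58 ± 0.24, adjusted p = 0.0469). Of 12 genes of S phase and mitosis 8 rose and 1 fell at 24 h, led by Mki67 (1.97 ± 0.070), Top2a (1.00 ± 0.046) and Birc5 (0.76 ± 0.065), and all 6 p53 targets rose, led by Ccng1 (2.06 ± 0.073), Cdkn1a (1.97 ± 0.14) and Mdm2 (1.94 ± 0.068). At 48 h the counts were 1 rise and 4 falls of 9 for the pentose phosphate list and 3 and 5 of 9 for the folate list. They were 3 and 2 of 11 for the IMP list and 1 and 2 of 8 for other PRPP users. Over all genes, 23.9% rose and 25.3% fell at 24 h, and 20.8% rose and 24.4% fell at 48 h.

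In NRVM, 9 of the 10 genes passed the filter. Hprt1, the rat gene of HPRT, had 0 or 1 read in each of the 15 libraries and was not tested, and no statement on its expression can be made from these counts. The myocytes showed another pattern than the CFs did. Gart, flat in CFs, had the largest fall, and the synthetase genes did not rise together. Gart was at 88.3, 78.0 and 83.0 CPM with vehicle, 64.5, 60.3 and 64.7 with ENPP1+ATP, 65.1, 68.6 and 62.3 with AMP, and 63.1, 63.6 and 62.7 with ATP. All 9 treated libraries lay below the 3 vehicle libraries, and the log2 fold changes were -0.40 ± 0.056 (adjusted p = 7.13e-08), -0.35 ± 0.056 (adjusted p = 9.50e-07) and -0.40 ± 0.056 (adjusted p = 5.58e-08). Whether Gart differs between CFs and NRVM was not tested, since the experiments differ in species, exposure and table.

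With ENPP1+ATP none of the 9 genes rose (28.6% of 13461 genes did) and 4 fell (27.4% of all genes). Besides Gart these were Ppat (-0.12 ± 0.053, adjusted p = 0.0460), Pfas (-0.12 ± 0.049, adjusted p = 0.0370) and Atic (-0.12 ± 0.048, adjusted p = 0.0321). Each of these small calls was lost when single libraries were left out, Ppat in 5, Pfas in 4 and Atic in 4 of 6 cases, and all 3 were lost with library totals as the only scaling (-0.06 each), Ppat also with DESeq2. Without NRVM ENPP1+ATP replicate 1, Gart was the only gene called.

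With AMP 2 genes rose (29.2% of all genes) and 3 fell (28% of all genes). Aprt was at 87.2, 84.8 and 86.5 CPM with vehicle and at 100, 106 and 104 with AMP, without overlap, a rise of 0.26 ± 0.048 (adjusted p = 9.65e-06). Adsl rose by 0.12 (adjusted p = 0.0382), a call lost in 4 of 6 omissions of a library (0.07 to 0.15), with DESeq2, with no filter and with only the libraries compared. Gart, Atic (-0.17 ± 0.048, adjusted p = 0.00286) and Paics (-0.19 ± 0.069, adjusted p = 0.0199) fell, the Paics libraries overlapping with vehicle and the call lost in 4 of 6 omissions (-0.25 to -0.13).

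With ATP 2 genes rose (30.2% of all genes) and 5 fell (29.7% of all genes). Prps1 was at 38.6, 33.8 and 33.3 CPM with vehicle and at 41.0, 42.7 and 46.7 with ATP, a rise of 0.30 ± 0.070 (adjusted p = 0.000282). Aprt rose to 96.7, 96.7 and 94.4 CPM (0.16 ± 0.048, adjusted p = 0.00518). Ppat fell from 85.7, 82.4 and 84.4 CPM to 76.2, 68.2 and 69.4 CPM (-0.24 ± 0.053, adjusted p = 0.000128), and Gart, Atic (-0.16 ± 0.048), Pfas (-0.15 ± 0.049) and Adsl (-0.14 ± 0.050) also fell. With library totals as the only scaling, which moved the median of all genes by 0.11 in this comparison, Atic, Pfas and Adsl kept a value below 0 without passing (-0.06, -0.04 and -0.03). Adsl also lost its call without ATP replicate 3, and Pfas without ATP replicate 1 or vehicle replicate 2 (-0.18 to -0.10).

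Added ENPP1 in the presence of ATP changed 2 genes in NRVM. Prps1 was lower than with ATP alone (-0.26 ± 0.069, adjusted p = 0.00302; 35.6, 34.7 and 38.2 CPM with ENPP1+ATP), and Adsl was higher (0.19 ± 0.049, adjusted p = 0.00285; 95.3, 92.4 and 94.1 CPM against 83.8, 82.5 and 80.9). This is 1 rise (14.1% of all genes) and 1 fall (13.5% of all genes). ENPP1 without ATP changed none (0% of all genes in either direction), by edgeR or DESeq2, with 693 genes but none of the 9 at an unadjusted p under 0.05 and member log2 fold changes of -0.12 to 0.01. Prps2, at 12.7 to 17.9 CPM over the 15 libraries, passed in no comparison.

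**Figure D4:**
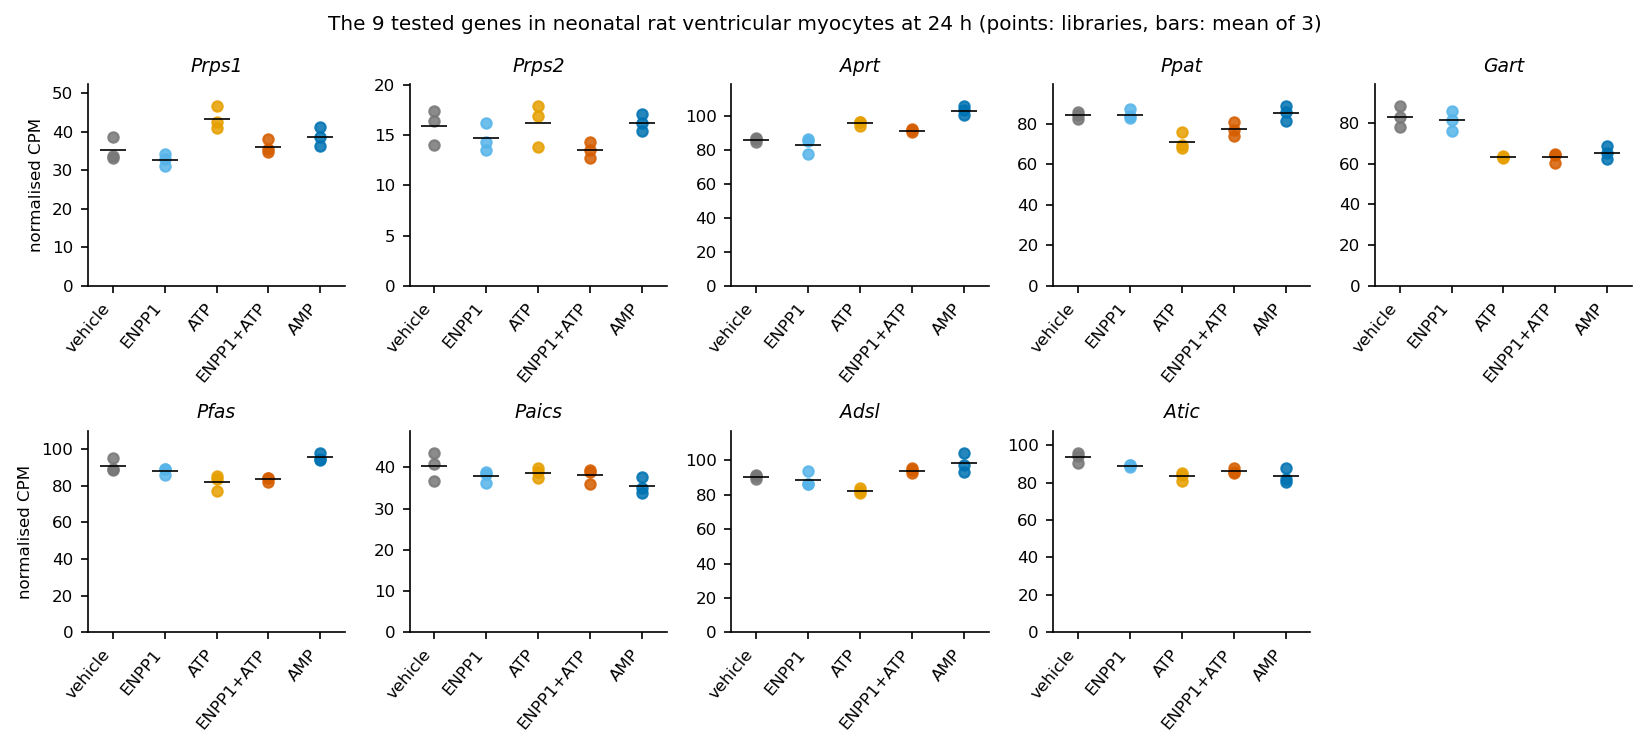
Normalised CPM (vertical axis, from 0) of the 9 tested genes in each NRVM library at 24 h, by treatment on the horizontal axis, with a bar at the mean of 3 libraries. The 9 Gart points for ATP, ENPP1+ATP and AMP lie at 60.3 to 68.6 CPM, below the 3 vehicle points at 78.0 to 88.3 CPM.

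Around the pathway in NRVM with ENPP1+ATP, the lists were counted beside all genes, of which 28.6% rose and 27.4% fell. Of 8 pentose phosphate genes 3 rose and 3 fell. They included Prpsap2, of a PRPP synthetase-associated protein (0.48 ± 0.064), Pgls (-0.64 ± 0.075) and Tkt (-0.47 ± 0.042). Of 11 genes between IMP and AMP or GMP, 6 rose and 2 fell, with Ampd1 (2.11 ± 0.52) and Ampd3 (1.31 ± 0.079), both AMP deaminases, and Impdh1 (-0.47 ± 0.064). Of 9 folate genes 1 rose and 5 fell, led by the mitochondrial enzymes Aldh1l2 (-2.43 ± 0.070), Mthfd2 (-1.25 ± 0.056) and Mthfd1l (-0.82 ± 0.080). Of 8 other PRPP users and salvage genes 3 rose and 2 fell, with the guanine deaminase gene Gda (2.41 ± 0.27), Naprt (1.31 ± 0.089) and the adenosine kinase gene Adk (-0.97 ± 0.067). All 4 transcription factors fell, among them Myc (-1.79 ± 0.081), Atf4 (-0.83 ± 0.039) and Mycn (-0.52 ± 0.14). Of 12 S phase and mitosis genes 2 rose and 5 fell, with Pcna (0.49 ± 0.049), Ccnb1 (-0.82 ± 0.097) and Cdk1 (-0.23 ± 0.075), and of 5 p53 targets 4 rose and 1 fell, with Cdkn1a (1.04 ± 0.041), Mdm2 (1.02 ± 0.047) and Ccng1 (0.66 ± 0.044).

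In the single-cell libraries 7252 ENPP1CKO and 5236 control cells were used, with medians of 3365 and 3701 counted molecules per cell, and 68 barcodes occurred in both libraries. With 1 library per genotype there is no test between genotypes. Values are the counts summed over the cells of a class, scaled to CPM by the total of that class, and intervals are exact and cover counting error only. Enpp1 itself was at 28.6 CPM in ENPP1CKO and 126 in control fibroblast-like cells. Of 23 clusters, 3 stayed unnamed, 2 of them led by cycling genes and 1 led by Clu, Serpinb2 and Wt1.

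The 10 genes together took 388 CPM in ENPP1CKO and 397 in control fibroblast-like cells (3660 and 1787 cells), 605 and 704 in macrophage-like cells (2022 and 2519 cells), and 599 and 573 in endothelial-like cells (932 and 191 cells). The log2 ratio of the macrophage-like sums was -0.22 (-0.28 to -0.16) by totals and -0.11 with a TMM factor between them. In the smaller classes the sums were 573 and 638 in T or NK cell-like, 382 and 419 in smooth muscle or pericyte-like, 350 and 402 in dendritic-like and 190 and 341 in B cell-like cells, with wider intervals, and neutrophil-like, cardiomyocyte-like and Schwann or glial-like cells gave at most 27 counts per library. The highest sums of any cluster with over 50 cells were in the cycling cluster with macrophage markers, at 931 and 889 CPM.

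Salvage genes made up most of these counts. In control cells Aprt was at 140, 383 and 239 CPM in the fibroblast-like, macrophage-like and endothelial-like classes, and Hprt at 70.1, 184 and 131. Paics was the leading de novo gene, at 94.4, 46.8 and 102. Pfas was lowest, at 1.74 and 3.78 in the first 2 classes and with 0 counts in control endothelial-like cells, which allows up to 5.39 CPM. These libraries count molecules, so the values need no length correction, but capture can differ between genes.

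In macrophage-like cells Aprt was at 270 CPM in the ENPP1CKO library (1856 counts) and 383 in the control library (3244 counts), a log2 ratio of -0.51 with a 95% interval of -0.59 to -0.42, beside a median of -0.13 over all genes of the class. The class was made of different clusters in the libraries, since a cluster led by Arg1 held 817 control and 51 ENPP1CKO cells. Within the clusters that both libraries filled, Aprt was at 316 and 456 CPM in the one led by Gpnmb (log2 ratio -0.53, -0.64 to -0.42) and at 224 and 281 in the one led by Cd74 (-0.33, -0.48 to -0.18). In the cluster led by Chil3 the value was 427 and 354, with an interval that includes 0 (-0.44 to 0.92). Outside this class the Aprt interval lay below 0 in the main endothelial-like cluster and in 1 unnamed cycling cluster, and above 0 in the fibroblast-like cluster led by Col11a1 and Acta2 (198 and 157 CPM) and in the unnamed cluster led by Clu. Over the macrophage-like class Atic was lower as well (12.7 and 18.7 CPM, log2 ratio -0.56, -0.96 to -0.17), and Prps2 (29.7 and 23.6, 0.33, 0.04 to 0.62) and Hprt (198 and 184, 0.11, 0.00 to 0.21) were higher. Within the clusters led by Gpnmb and Cd74 the intervals of these genes included 0. They were -1.14 to 0.06 and -1.01 to 0.37 for Atic. For Prps2 they were -0.14 to 0.69 and -0.23 to 0.73, and for Hprt -0.10 to 0.21 and -0.09 to 0.26. Intervals excluded 0 in the higher direction for 2 of the 10 genes (8.17% of 10816 genes with at least 20 counts) and in the lower direction for 2 (24.4% of these genes).

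In fibroblast-like cells, where Cre is active, the sum of the 10 genes stayed close. Its log2 ratio was -0.04 (-0.09 to 0.02) without the unnamed cluster led by Clu and Wt1 (28 ENPP1CKO and 116 control cells). Counting that cluster as fibroblast-like, a choice added after the data were seen, gave -0.09 (-0.15 to -0.04). The cluster met a share of 0.7 of the fibroblast markers, against 0.2 for the next list, and a separate rule on its leading genes left it unnamed. Whether the interval includes 0 thus depends on that rule. Ppat at 6.28 and 3.78 CPM (101 and 37 counts, log2 ratio 0.73, 0.17 to 1.32) and Pfas at 3.11 and 1.74 (50 and 17 counts, 0.84, 0.02 to 1.73) were higher in the ENPP1CKO library, 2 of 10 genes against 16.8% of 12623 genes, and none was lower against 15.9% of them. In the largest cluster of the class, led by Eln (1577 and 1104 cells), Ppat had 26 and 22 counts (log2 ratio -0.01, -0.89 to 0.88) and Pfas 18 and 8 counts (0.92, -0.36 to 2.33), so neither interval excluded 0 there. One cluster of this class, led by Thbs4 and Cilp, held 1655 ENPP1CKO and 243 control cells, with 64 and 3 Ppat counts (log2 ratio 1.82, 0.21 to 4.14) and 25 and 2 Pfas counts. In endothelial-like cells Hprt was higher (191 and 131 CPM, log2 ratio 0.54, 0.17 to 0.93), 1 of 9 genes against 7.12% of 8029 genes, and Aprt lower (178 and 239, -0.43, -0.72 to -0.12), 1 of 9 against 9.44%. The median count per cell there was 1472.5 with ENPP1CKO against 2597 in controls, and its part in the difference was not tested. In the main endothelial-like cluster the Hprt interval also lay above 0 (0.09 to 0.88). In the macrophage-like class it did so only just (0.0016 to 0.21), and not within the clusters led by Gpnmb and Cd74. Over all cells Hprt was lower in the ENPP1CKO library (log2 ratio -0.12, -0.19 to -0.04).

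**Figure D5:**
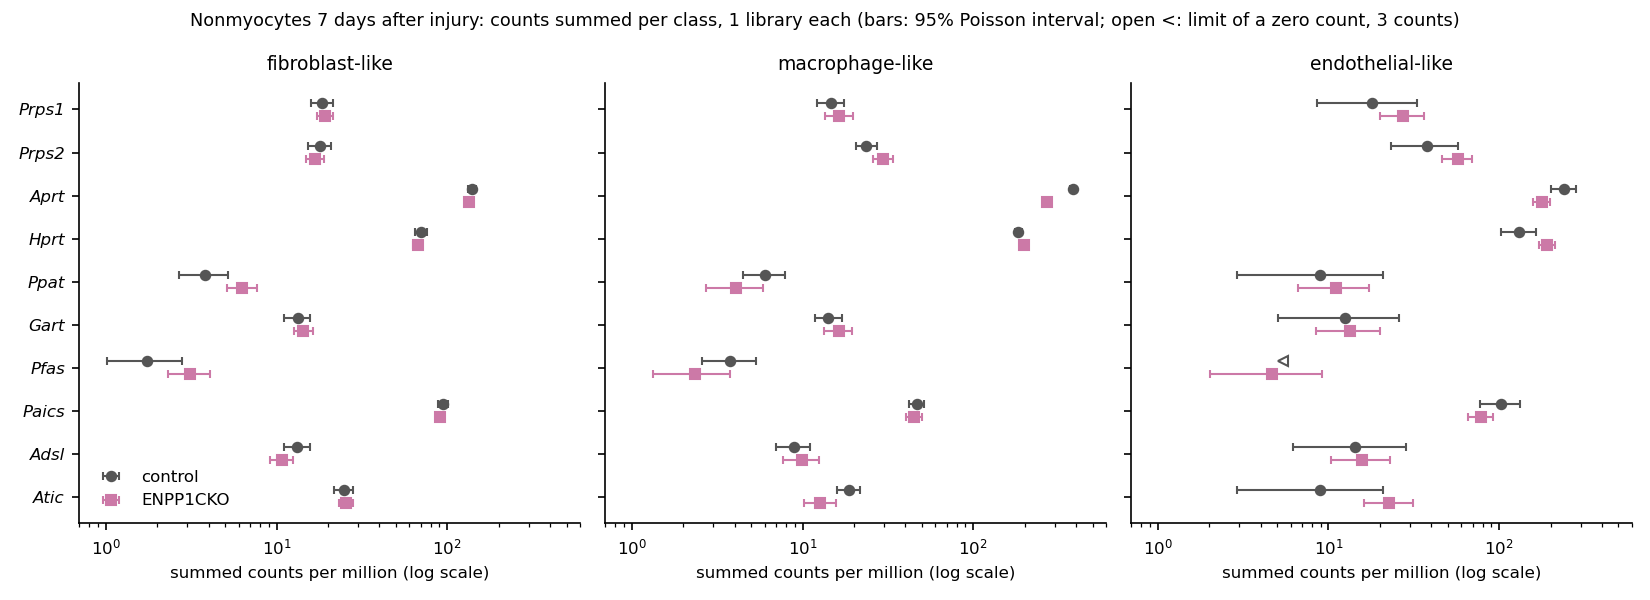
Summed CPM (horizontal log axis) of the 10 genes in 3 classes of nonmyocytes at 7 days after injury, circles for the control and squares for the ENPP1CKO library, with 95% Poisson intervals and an open marker at the limit of a zero count. Aprt and Hprt lie furthest right in macrophage-like cells, where the Aprt symbols of the 2 libraries (270 and 383 CPM) stand apart.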

How the data were processed

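Bulk counts and single-cell counts were used as deposited. According to the labels, the authors aligned the bulk reads with STAR 2.5.3a and made the single-cell count matrices with Cell Ranger (builds mm10 and rn6). The read counter, annotation and strand setting are not given in the sources used here. The 10 genes and all gene lists were chosen with earlier results of these data known.

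Counts per gene were tested with edgeR 4.0.16 (quasi-likelihood, robust, two-sided, R 4.3.3) after filterByExpr and TMM scaling, in 1 fit for the 20 CF and 1 for the 15 NRVM libraries. P-values were adjusted by Benjamini-Hochberg over all genes tested, and genes under 0.05 were called. Standard errors were derived from the F statistic. Normalised CPM were scaled to TMM-adjusted library totals. The genes named from each pathway list are the 3 with the largest absolute log2 fold change among those called in CFs at 24 h with ENPP1+ATP, and likewise in NRVM. The test was also run on simulated counts in which few genes changed, equally up and down, in 1 group. Media with as many calls as here were not simulated. Alternatives were DESeq2 1.42.0, other scalings, no filter, smaller fits, a replicate block and omission of each library.

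Cells with at least 200 detected genes and at most 20% mitochondrial counts were kept, predicted doublets were removed (154 ENPP1CKO and 73 control cells), and the rest were clustered with scanpy 1.11.5 (2000 variable genes, 30 components, Leiden resolution 0.5). Classes were named from marker lists, and 360 cells stayed unnamed. By a separate rule, a cluster led by genes of the heart's outer lining, Wt1 among them, was kept unnamed whatever its markers. Names may differ from the authors' own. A gene entered the class shares with at least 20 counts. Intervals are exact at 95% and cover counting error only, and a count of 0 is given a limit of 3 counts. Promoter windows and gene positions are from RefSeq (GRCm38.p6).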

Additional observations from a re-analysis of the deposited data

Results flagged for a closer look

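The results singled out here are those in which the effect of a medium on CFs differed between 48 h and 24 h by the edgeR interaction test, in log2 units as the 48 h minus the 24 h fold change. For ENPP1+ATP these were Aprt (0.99), Prps2 (0.39), Atic (0.34), Adsl (0.30), Paics (0.26), Prps1 (-0.37) and Pfas (-0.32). For AMP they were Aprt (0.76), Prps2 (0.43), Hprt (0.26), Atic (0.25), Paics (0.23), Prps1 (-0.43), Ppat (-0.26) and Pfas (-0.24). Both sets share the vehicle libraries. Aprt and Prps2 passed in every omission of a library and under every alternative tried. With library totals as the only scaling, which moved the median of all genes by -0.13 and -0.14, the calls of Atic, Adsl and Paics (ENPP1+ATP) and of Atic, Hprt and Paics (AMP) were lost. Prps1 lost both calls only when the counts of Prps1l3 were added (-0.10 and -0.10). For AMP the calls of Pfas (lost in 6 of 8 omissions, -0.32 to -0.14), Hprt (5, 0.20 to 0.33), Atic (5, 0.18 to 0.33), Ppat (4, -0.31 to -0.20) and Paics (2, 0.18 to 0.28) depended on single libraries, as did Adsl for ENPP1+ATP (3, 0.23 to 0.36).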

How the results depend on the processing

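No called value changed sign under any alternative, and DESeq2 and relative log expression factors kept all 18 counts of called members within 1.5 times. With library totals as the only scaling, 7 in place of 4 members were called for CF 48 h ENPP1+ATP against ATP and 4 in place of 7 for NRVM ATP. With only the libraries compared in the fit, 5 in place of 3 were called for CF 48 h ATP and 2 in place of 1 for vehicle 48 h against 24 h, where all genes called rose from 1400 to 2590 and from 873 to 2485. Omitting single libraries gave 0 to 2 members for CF 24 h ATP (3 with all), 1 to 3 for CF 48 h ATP (3), 4 to 6 for CF 48 h ENPP1+ATP (7), 0 for vehicle between times (1), 4 to 7 for the AMP time difference (8), 1 to 4 for NRVM ENPP1+ATP (4) and 3 to 4 for NRVM AMP (5), and 6 throughout for CF 24 h ENPP1+ATP (6). All genes called then fell to 920 to 1205 from 1983, 646 to 929 from 1400, and 235 to 440 from 873 for CF 24 h ATP, CF 48 h ATP and vehicle between times. For ENPP1 alone, where no gene was called, leaving out the filter gave 26, 180 and 14 genes (CF 24 h, CF 48 h, NRVM), fits of only the compared libraries 0, 1 and 5, and omissions of a library up to 129 at CF 48 h, none of them members. Library totals also moved the share of higher calls over all genes from 47.9% to 37.4% (CF 48 h AMP), 68.3% to 52.3% (CF 48 h ATP), 34.5% to 64.2% (vehicle between times), 50.3% to 29.2% and 54.6% to 31.6% (ENPP1+ATP and AMP time differences), 50.4% to 63.9% (NRVM ATP) and 51.2% to 35.6% (NRVM ENPP1+ATP against ATP). A TMM factor between the class sums moved the macrophage-like log2 ratio from -0.22 to -0.11. The cause of these shifts was not tested.

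After removal of each group mean, same-numbered libraries correlated over 0.1 in 4 of 40 CF pairs and 1 of 30 NRVM pairs. With 2 libraries per CF group, the values for replicates 1 and 2 are equal by construction, so the CF pairs repeat each other. These correlations cannot decide whether replicate numbers pair the libraries. With the replicate number as a block, 0 in place of 1 member was called for vehicle between times (Atic, -0.16, adjusted p = 0.168), and no other call of a member was lost.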
